A study of Arabidopsis thaliana with 3 samples.

Results

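The genes described here are FLOWERING LOCUS C (FLC) and 9 of its regulators in Arabidopsis thaliana, chosen by gene identifier from the 37336 genes of the count table, which holds all 10. They are FLC itself, its activator FRI, the autonomous-pathway genes FCA, FY, FPA, FLK, FVE (also called MSI4) and LD, and the vernalization genes VIN3 and VRN1. The libraries, 3 in all, were made from polyadenylated RNA of Col-0 wild-type plants taken as entire seedlings at 7 days of age. They were grown untreated at 21 °C under 16 h of light and 8 h of dark on Murashige and Skoog agar (0.8%) with sucrose (1.5%). All 3 samples form 1 group, and no other genotype, temperature or age was analysed here. The series concerns cohesin subunits and the targeting of H2A monoubiquitination. Whether the replicates were separate cultures is not in the labels, so each p-value refers to a spread among samples that may be technical.

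FLC encodes a MADS-domain repressor of flowering that acts on FT and SOC1 and so delays the change from leaf to flower production. FRI activates FLC, while the autonomous pathway keeps FLC low through RNA 3′-end processing of its antisense transcripts and through chromatin. Vernalization, the response to a long cold period, silences FLC through Polycomb proteins that include the cold-induced VIN3. Col-0 carries a natural deletion in FRI that truncates its product, and Col-0 plants flower early without cold treatment.

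FLC was counted at a low level that hardly differed between the libraries. VIN3 had 0 counts in each library, while the other vernalization gene, VRN1, and all 6 autonomous-pathway genes were detected, which here means at least 1 CPM (counts scaled to the TMM-adjusted library total) in each library. Among the 10 genes 9 were detected, against 45.7% of all genes in the table. LD differed most between libraries, with 30.7 CPM in replicate 1, against 10.5 and 8.56 CPM in replicates 2 and 3.

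Of the reference sequence, 3 stretches are shown because they hold elements known from work on the VIN3 promoter or on the binding of VAL1 to FLC. In the upstream sequence of FLC the elements are shown as matches only. There both also lie within the last exon, 3179084 to 3179600, of an antisense gene described below. The 3 stretches were read from the TAIR10.1 assembly. The upstream sequences are the 250 bases before the annotated start of each gene, 5′ to 3′ on the gene's own strand (the minus strand of chromosome 5 for both), with capitals for the evening element AAATATCT and the G-box CACGTG, searched on both strands. The evening element is a site of morning clock factors, and both elements are known from work on the VIN3 promoter. The intron window is shown for its RY cores, TGCATG, in capitals, which are known as the place where the B3-domain repressor VAL1 binds FLC.
FLC upstream, chr5:3179449-3179698: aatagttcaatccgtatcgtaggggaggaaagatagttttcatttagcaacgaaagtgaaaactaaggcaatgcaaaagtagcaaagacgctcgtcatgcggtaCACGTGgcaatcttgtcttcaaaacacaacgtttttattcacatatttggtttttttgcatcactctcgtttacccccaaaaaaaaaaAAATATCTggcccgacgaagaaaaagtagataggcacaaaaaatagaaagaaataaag
VIN3 upstream, chr5:23249505-23249754: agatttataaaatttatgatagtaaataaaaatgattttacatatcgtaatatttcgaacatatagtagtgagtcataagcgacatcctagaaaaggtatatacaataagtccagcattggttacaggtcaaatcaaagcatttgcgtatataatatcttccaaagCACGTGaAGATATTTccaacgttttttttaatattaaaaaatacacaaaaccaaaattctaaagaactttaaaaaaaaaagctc
FLC intron 1 window, chr5:3178798-3178896: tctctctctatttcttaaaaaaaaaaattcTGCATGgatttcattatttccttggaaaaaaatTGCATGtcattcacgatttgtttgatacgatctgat

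Both motifs stood in the upstream sequence of FLC and of VIN3 and in that of none of the other 8 genes. FY held the G-box alone. Of 27444 upstream sequences of protein-coding genes with the same length, 4.79% held the evening element, 6.49% the G-box and 0.302% both. The elements were picked because they are known from VIN3, so these shares do not test enrichment among the genes described. In VIN3 the 2 elements were 1 base apart without overlap, with the evening element on the opposite strand. Intron 1 of FLC, 3493 bases long, held the RY core 2 times. The window was cut around these cores with 30 bases on each side, so that it holds both was fixed in advance. Among consecutive genome windows of 99 bases, 0.525% held it 2 or more times. Those windows were not placed by the motif, so this share does not show how rare the FLC window is. These matches are descriptions of the letters, and binding was not measured.

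The libraries held 27069921 to 32967215 counts, and replicate 1 stood apart from the others. Pearson's r of log2(CPM + 0.5) across 17050 detected genes, which are not independent replicates, was 0.993 for replicates 2 and 3 but 0.934 for replicate 1 with 2 and 0.920 for replicate 1 with 3. Tested root markers were lower in replicate 1, some by little. The 11 root markers summed to 57.04, 176.6 and 163.1 CPM in replicates 1, 2 and 3. All 7 that could be tested had their lowest value in replicate 1, against 43.8% of all genes tested. Among them SCR had 33.7, 38.1 and 36.9 CPM and SHR 17.4, 21.9 and 27.4 CPM. PLT1 had 0.59, 1.14 and 0.921 CPM and PLT2 0.365, 0.523 and 1.15 CPM in the same order. COBL9, EXPA7 and PRP3, which did not pass the filter on low counts, had 3, 6 and 5 counts there. NRT2.1 was at 0 in all libraries, and SCR and SHR are also active in shoots. The edgeR test described below called 3 of the 7 root markers tested, against 2.02% of all genes tested. These were TIP2;3 (1.32, 35.9 and 25.7 CPM), IRT1 (1.43, 31.2 and 25.4 CPM) and CASP1 (1.88, 28 and 27.6 CPM). The 5 shoot markers summed to 56140, 54150 and 52940 CPM, and all were detected. The 5 flower markers summed to 0.984, 1.079 and 0.499 CPM with 0 detected. In bulk tissue, fewer cells of a type and less RNA per cell cannot be told apart. The part of this difference in the results below was not tested.

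FLC (AT5G10140, chromosome 5, 3173382 to 3179448, minus strand) had 57, 46 and 42 counts in replicates 1, 2 and 3. Scaled by library size this was 1.6, 1.5 and 1.61 CPM, a mean of 1.57 ± 0.06 CPM (SD, n = 3). The 3 libraries were thus close to one another, replicate 1 included. The 145 counts in all have an exact Poisson interval of 122.4 to 170.6 at 95%, which covers counting error only. Per kb of merged exons the level was 1.33 ± 0.0509 CPM, higher than in 5.98% of the detected genes. The 3 genes closest to FLC in log2(CPM + 0.5) over the 3 libraries were IQD12 (AT5G03960; Euclidean distance 0.0666), AT1G03340 (0.0915) and AT4G22770 (0.0967). Their CPM lay between 1.44 and 1.73 in every library, and 62 genes lay within a distance of 0.25, so this likeness picks out no narrow group.

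The FLC count rests on a small share of the gene. The RefSeq annotation places an antisense long noncoding RNA gene, AT5G01675, at 3173371 to 3179600 on the opposite strand, over the whole of FLC. Its exons cover 804 of the 1180 exon bases of FLC (68.1%), including all of the first and the last of the 8 merged exons, and leave 376 bases in the other 6. Antisense transcripts of FLC are known as COOLAIR. AT5G01675 itself had 0 counts in each library, although 417 of its own 1221 exon bases are shared with no gene. Of its first merged exon, 627 bases long, 510 bases lie on the last exon of FLC. Reads from shared positions may not have been counted, so these counts do not show that antisense transcripts were absent. A count of 0 allows up to 3 counts, which is 0.0843, 0.0981 and 0.115 CPM in replicates 1, 2 and 3. The labels describe no step that marks strand, and without it sense and antisense reads cannot be told apart.

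**Figure D1:**
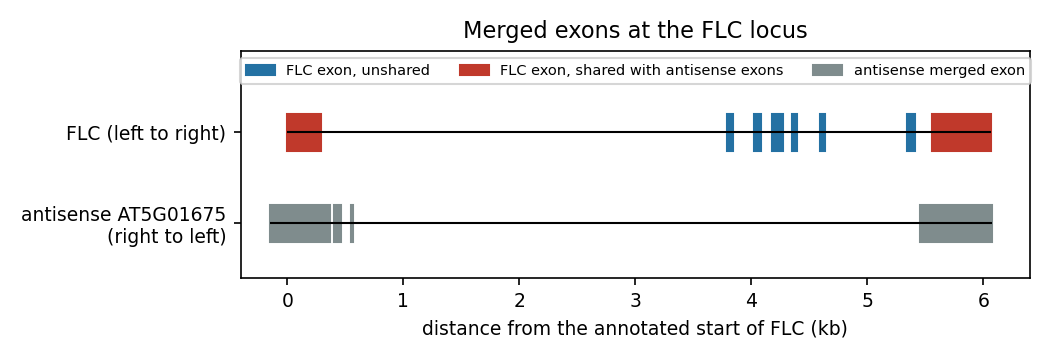
Merged exons of FLC (upper row) and of the antisense gene AT5G01675 (lower row) against distance from the annotated start of FLC in kb. Red exons of FLC (804 bases) lie on antisense exons and blue exons (376 bases) do not; FLC is transcribed from left to right and the antisense gene from right to left.

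How shared positions were counted can be read from the whole table. Of 368 protein-coding genes with 100% of their exon bases shared with another annotated gene, 365 (99.2%) had 0 counts in every library. The share was 335 of 338 (99.1%) where the other genes lay only on the opposite strand, as at FLC. Of 19818 genes with no shared base, 3604 (18.2%) had 0 counts. Among the 254 genes in the range of FLC, 60% to under 80% shared, 83 (32.7%) had 0 counts and the median was 0.0941 CPM. Per kb of unshared exon bases, FLC was at 4.18 ± 0.16 CPM (SD, n = 3), against 1.33 ± 0.0509 CPM per kb of all merged exons. The median per kb of unshared exon bases was 0.365 CPM in the range of FLC and 2.62 CPM for genes with no shared base. Whether this scale corrects for uncounted shared positions was not tested. On that scale FLC exceeded 26.9% of 17048 detected genes, against the 5.98% given above. Both are given below where the choice changes an order.

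**Figure D2:**
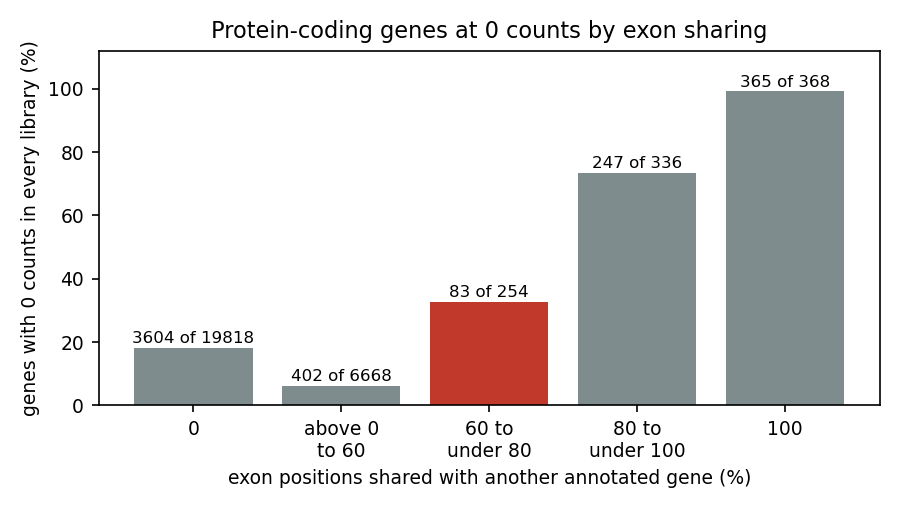
Share of protein-coding genes with 0 counts in every library (percent, bars from 0) by the percentage of exon positions shared with another annotated gene; labels give the number of genes. The red bar is the class that holds FLC, and the bar for genes wholly shared reaches 99.2%.

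FRI (AT4G00650, chromosome 4, 268901 to 271503, plus strand), which encodes the scaffold of a complex that activates FLC, had 7.20, 6.93 and 6.49 CPM in replicates 1, 2 and 3. The mean was 6.87 ± 0.359 CPM (SD, n = 3), or 3.24 ± 0.169 CPM per kb. The transcript was therefore present in each library at a similar level. Per kb of merged exons, FLC was below FRI in 3 of 3 libraries, with a log2 ratio of FLC over FRI of -1.22 ± 0.10 (SD, n = 3). Per kb of unshared exon bases the same ratio was 0.21, with FLC above FRI, so the order of these genes depends on how the antisense gene is treated. Of the 2121 exon bases of FRI itself, 1909 are shared with no other gene.

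The 5 genes of the FRI complex list were all detected. Per kb they spanned 2.33 CPM for FRL1, a FRI relative, to 13 ± 2.07 CPM for SUF4, the zinc-finger protein that tethers the complex to DNA (SD, n = 3). FES1 and FLX, further partners of FRI, stood at 4.71 and 4.07 CPM per kb. FRI thus lay within the range of its partners. By the Poisson test described below 2 of the 5 varied beyond counting error, against 78.5% of all genes tested.

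The autonomous RNA-processing genes were present at moderate and mostly even levels. FCA (AT4G16280, chromosome 4, 9206597 to 9214981, minus strand), an RNA-binding protein that favours proximal polyadenylation of the antisense transcript, had 45.4, 30.9 and 33.6 CPM in replicates 1, 2 and 3. Replicate 1 was the high library. FY (AT5G13480, chromosome 5, 4326397 to 4331971, minus strand), the polyadenylation factor with which FCA works, had 19.4, 18.7 and 18.3 CPM. FPA (AT2G43410, chromosome 2, 18025247 to 18031255, minus strand), a further RNA-binding protein of 3′-end choice, had 28.1, 28.2 and 28.9 CPM. Its values differed least of the 9 detected genes, with a coefficient of variation of 1.54%, against 2.86% for FY and 21.2% for FCA. FLK (AT3G04610, chromosome 3, 1250553 to 1254984, minus strand), a KH-domain RNA-binding protein, had 41.8, 39.8 and 37.4 CPM.

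The 2 other autonomous genes differed from each other in both level and spread. FVE (AT2G19520, chromosome 2, 8455756 to 8459642, plus strand), a WD-40 protein that works with histone deacetylase, had 43.9, 50.3 and 49.6 CPM in replicates 1, 2 and 3. Replicate 1 was the low library, by a log2 difference of -0.20 from replicate 2. LD (AT4G02560, chromosome 4, 1123475 to 1128490, minus strand), a homeodomain protein, had 1093, 321 and 223 counts, which gave the CPM named above. Its mean of 16.6 ± 12.3 CPM (SD, n = 3) describes no single library, and without replicate 1 the mean of its remaining values was 9.53 CPM. The log2 ratio of FVE over LD per kb was 1.10, 2.81 and 3.08 in replicates 1, 2 and 3, positive in 3 of 3.

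Of the vernalization genes, VRN1 was detected and VIN3 was not. VIN3 (AT5G57380, chromosome 5, 23246395 to 23249504, minus strand), a PHD-finger protein that joins Polycomb repressive complex 2 in the cold, had 0 counts in every library, and only 1.14% of its exon bases are shared with another gene. VRN1 (AT3G18990, chromosome 3, 6548127 to 6552055, minus strand), a DNA-binding protein with B3 domains needed to keep FLC silent after cold, had 21.5, 23 and 21.8 CPM, a mean of 22.1 ± 0.832 CPM (SD, n = 3). For a ratio, VIN3 was set to a limit of 3 counts per library, and a pseudocount of 0.1 CPM per kb was added to both genes. VRN1 was then at least 64.5-fold higher per kb in each of the 3 libraries. The pseudocount is larger than the limit per kb, so it largely sets this fold, and the limit alone would give a higher one. Replicate 1 had a log2 ratio of 6.12, against 6.16 and 6.01 for replicates 2 and 3. The pseudocount also draws these values together, so they do not rank the libraries. Averaged over libraries, the log2 ratio fell from 6.099 to 3.363 with a pseudocount of 1.

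Other genes of the vernalization list were detected in 9 of 10 cases, and all 9 varied beyond counting error, as did 78.5% of all genes tested. VEL1, a relative of VIN3 of the same PHD-finger family, led the list at 29.7 ± 5.05 CPM per kb (SD, n = 3), and VRN5, the partner of VIN3, was at 6.61 CPM per kb. VEL2, another relative, had 1, 1 and 0 counts and was the list's lowest gene. The VIN3 family was thus represented by VEL1 and VRN5, with VIN3 and VEL2 at or near 0. The cold-response markers were mixed, since 4 of 7 were detected, and the 5 that could be tested varied beyond counting error. COR47, a dehydrin, was highest at 60.4 ± 12 CPM per kb, while the early cold regulators CBF1 and CBF3 had 3, 0 and 1 counts and 2, 1 and 4 counts in replicates 1, 2 and 3, so that 2 of the 3 CBF genes were near 0. CBF2 was at 2.53, 0.392 and 0.921 CPM.

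Per kb of merged exons the 10 genes ranked FVE, FLK, VRN1, FCA, FY, FPA, LD, FRI, FLC and VIN3. Per kb of unshared exon bases FLC, at 4.18 CPM, stood above FRI, at 3.6 CPM. LD, which shares no bases, was at 9.37, 3.2 and 2.61 CPM per kb in replicates 1, 2 and 3. On that scale its mean lay above FLC only through replicate 1. The values that follow are for merged exons unless another length is named. FVE reached 22 ± 1.62 CPM per kb, higher than in 74.8% of the detected genes, and FLK 14.9 ± 0.838 CPM per kb (SD, n = 3). VRN1 was at 9.74 ± 0.366, FCA at 6.86 ± 1.45, FY at 6.63 ± 0.189, FPA at 5.38 ± 0.0826 and LD at 5.06 ± 3.74 CPM per kb. Neighbours were taken to differ when their log2 ratio exceeded its SD over libraries and had 1 sign in all 3. By that measure FVE stood above FLK (1.47-fold), FLK above VRN1 (1.53-fold), VRN1 above FCA (1.43-fold) and FY above FPA (1.23-fold). FCA and FY did not differ beyond their spread (log2 ratio 0.03 ± 0.26), nor did LD and its neighbours, at 0.32 ± 0.99 for FPA over LD and 0.40 ± 0.91 for LD over FRI (SD, n = 3). The merged exons of FPA, 5273 bases, exceed its longest annotated transcript, 4123 bases, and per kb of the longest transcript FPA was at 6.88 and FY at 7.04 CPM.

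**Figure D3:**
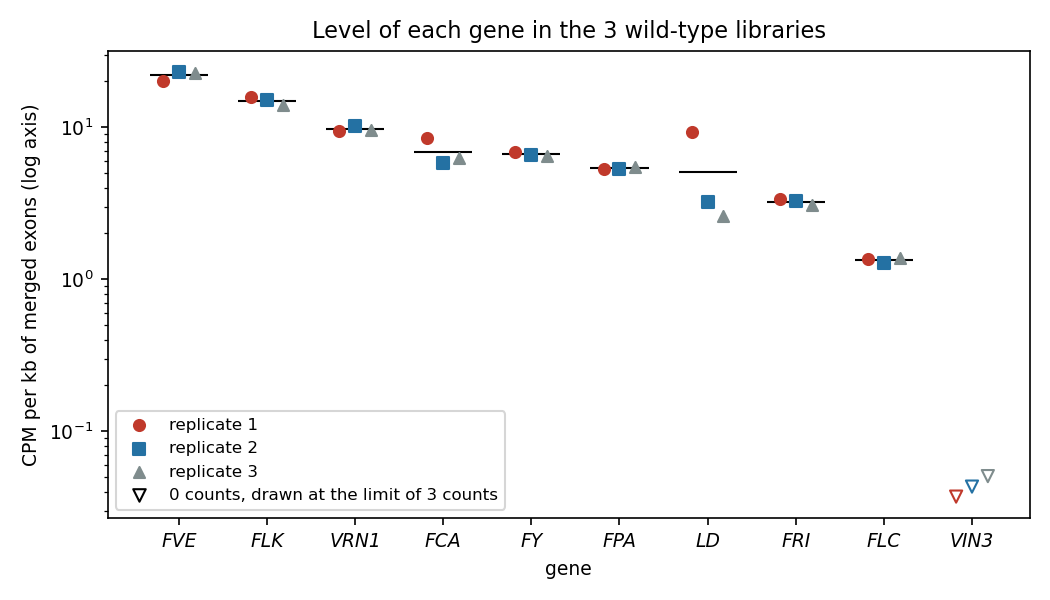
Level of each of the 10 genes in CPM per kb of merged exons (log axis) in replicates 1, 2 and 3, with black lines for the means; open triangles show VIN3, at 0 counts, at the limit of 3 counts. LD alone shows a replicate 1 value (9.37) far above the others (3.20 and 2.61), and FLC lies lowest of the detected genes on this scale. Per kb of unshared exon bases FLC stood above FRI.

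Of 6 gene pairs set for comparison, 5 held the same direction in 3 of 3 libraries and FCA over FY did not. Besides those given, FPA was below FLK by a log2 ratio of -1.46 ± 0.10, and the log2 ratio of FLC over its MADS-family relative FLM was -2.03 ± 0.27 per kb of merged exons (SD, n = 3). Per kb of unshared exon bases the ratio to FLM was -0.45. An exact permutation test that flips the signs of 3 values (two-sided) has 0.25 as its smallest p, which these 5 pairs had. Adjusted over the 6 pairs, that exact p became 0.3.

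Of the 9 genes with enough counts to test, 5 did not vary detectably between libraries. In a Poisson chi-square test of the 3 counts with Benjamini-Hochberg adjustment over 19016 genes, 78.5% of the genes varied beyond counting error, and 4 of the 9 tested members did. The 4 were LD (adjusted p = 2.23e-119), FCA (2.59e-23), FVE (0.000302) and FLK (0.0313). FLC, FRI, FY, FPA and VRN1 did not pass, with adjusted p of 0.939, 0.606, 0.649, 0.84 and 0.403. Few counts weaken this test for FLC, and of all genes with a mean count of 30 to 100, its range, 66.5% passed. For the range of FRI, 100 to 300, it was 75.4%. FY, FPA, VRN1 and LD had mean counts between 300 and 1000, where 81.1% of genes passed, and FCA, FVE and FLK between 1000 and 2000, where 88.5% passed. Without replicate 3, FLK no longer passed, and with scaling to total counts FY passed in place of FVE. Without replicate 1, 0 of the 9 passed this test (1 at an unadjusted p under 0.05, LD) and 24.7% of all genes did.

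The goodness-of-fit test of edgeR asks whether a gene varied more than others of similar abundance. Its trend was fitted with replicate 1 included and so holds the difference of that library. The common coefficient of variation beyond counting error in edgeR was 0.3196 with all libraries and 0.09504 without replicate 1. After Benjamini-Hochberg adjustment it called 0 of the 9 members and 2.02% of the 19016 genes. LD alone had an unadjusted p under 0.05, with an adjusted p of 0.156 in edgeR. DESeq2 marked 0 of the 9 as dispersion outliers, among 23 genes in all. Without replicate 1 the edgeR test called 0 of the 9 (0 at an unadjusted p under 0.05) and 0.308% of all genes.

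LD differed from replicate 2 by a log2 value of 1.51 and from replicate 3 by 1.79 in replicate 1. More than 2-fold higher values in replicate 1 were found for 6.28% of genes against replicate 2 and 8.17% against replicate 3, and LD was the 1 member among them in both. Lower values by the same margin were found for 6.41% and 7.3% of genes and for 0 members. Between replicates 2 and 3, 0.0473% of genes were more than 2-fold higher and 0.247% lower, with 0 members among them. FCA came next, at 0.55 and 0.43. The median over the 9 members was 0.05 for replicate 1 minus 2, 0.08 for 1 minus 3 and 0.03 for 2 minus 3, and over all genes tested it was 0.01, 0.01 and 0.01. Replicate 1 was the highest library for 5 of the 9, against 45.4% of genes, and the lowest for 3, against 43.8% of genes. These counts depend on the scaling. With total counts in place of TMM, every gene shifts by 0.164 for replicate 1 minus 2 and 0.165 for 1 minus 3. Replicate 1 was then the highest library for 8 of the 9 and the lowest for 1, FVE. The shares of 45.4% and 43.8% hold for TMM only. Shares of all genes with total counts are not at hand, so these counts cannot be read as particular to the members. Across 16749 detected protein-coding genes the difference of replicate 1 had a Spearman's rho of 0.405 with the purine share of exons and 0.252 with exon length. LD exceeded 79.6% and FCA 16.7% of these genes in purine share, and LD exceeded 90.0% and FCA 98.6% in exon length. The part of exon composition and length in the LD and FCA values was not tested.

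The other pathway genes were tested in the same way. Their lists were chosen with earlier results of these data known, so the shares given for them are descriptions. Of 47 other pathway genes 44 were detected and 45 tested; 33 varied beyond counting error by the Poisson test, against 78.5% of all genes tested, and 0 were called by the edgeR test (4 at an unadjusted p under 0.05). Their median log2 difference was 0.35 from replicate 2 and 0.33 from replicate 3, and 32 of the 45 were highest in replicate 1, against 45.4% of all genes tested.

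By role, the chromatin activators of FLC were all detected, 12 of 12. Replicate 1 was highest for 9, against 45.4% of all genes tested, and 10 varied beyond counting error, against 78.5%. This list holds the PAF1 complex, the SWR1 complex and histone methyltransferases. VIP4, a PAF1 subunit, was at 60.7, 23.4 and 19.0 CPM in replicates 1, 2 and 3 (adjusted p = 0.122, edgeR goodness of fit). PIE1, the ATPase of SWR1, was the lowest of the list per kb at 2.0 CPM and had 829, 307 and 218 counts in the same order. ARP6, an SWR1 subunit, was the highest per kb at 16.3 ± 1.29 CPM (SD, n = 3). HUA2, an RNA-processing factor that promotes FLC expression, had even values of 44.8, 45.0 and 46.4 CPM.

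The 11 other autonomous and antisense-processing genes were all detected and 6 varied beyond counting error, against 78.5% of all genes tested. Their median log2 difference was 0.11 between replicates 1 and 2. FLD, a histone demethylase homologue, had 19.9, 19.4 and 20.6 CPM in replicates 1, 2 and 3, and HDA6, a histone deacetylase, 26.1, 26.0 and 26.9 CPM. Neither varied beyond counting error (adjusted p = 0.616 and 0.766, Poisson test). GRP7, a glycine-rich RNA-binding protein under clock control, was the highest of the list at 136 CPM per kb and went the other way, with 74.8 CPM in replicate 1, against 183 and 216 CPM in replicates 2 and 3 (adjusted p = 0.164, edgeR). LDL2, an FLD relative, was lowest at 1.17 CPM per kb.

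The MADS genes most like FLC, and its partner SVP, were all detected, 6 of 6, and 4 varied beyond counting error, against 78.5% of all genes tested. Per kb, SVP was highest at 36.5 ± 4.90 CPM, and MAF5 at 1.16 CPM was close to the merged-exon value of FLC (SD, n = 3 for SVP). MAF5 shares no exon bases, and per kb of unshared exon bases FLC was higher, at 4.18 CPM. MAF2 had the largest difference of the list, 1.62 from replicate 2 and 1.80 from replicate 3 in replicate 1, on the log2 scale (adjusted p = 0.059, edgeR goodness of fit). Of the 3 FLC targets listed, 2 could be tested and both varied beyond counting error, as did 78.5% of all genes tested. SOC1 was detected, at 13.9 ± 3.88 CPM per kb (SD, n = 3). FT, the mobile flowering signal, had 1, 1 and 5 counts, and FD, its partner at the shoot apex, 64, 27 and 48 counts.

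**Figure D4:**
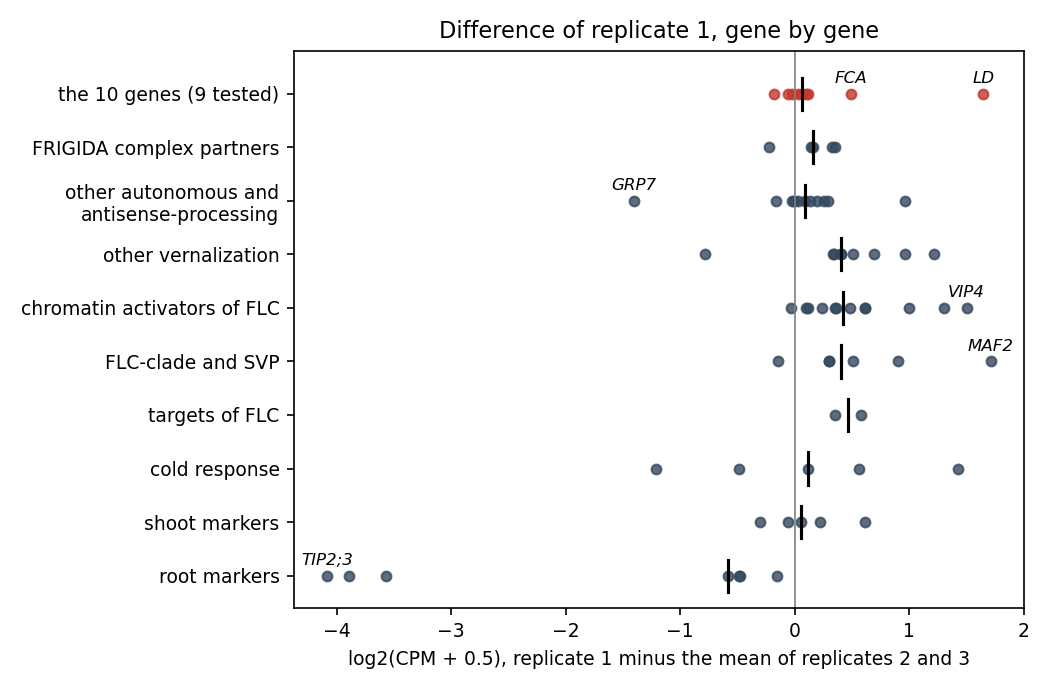
Difference in log2(CPM + 0.5) of replicate 1 minus the mean of replicates 2 and 3 for each tested gene (points) with the list median (vertical lines); the 9 tested members are in red. Members cluster at 0 except FCA and LD, while 3 of the 7 tested root markers lie below -3 and MAF2 and VIP4 lie to the right.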

How the data were processed

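The authors deposited raw counts for each gene, as whole numbers, in 1 column for each of the 3 libraries. Tools listed, without a role, in the submitters' processing notes are featureCounts 1.6.1, HISAT2 2.1.0 and DESeq2, and the build is TAIR10. The sources used here do not give the annotation, strand setting or filters. Gene names, exons, overlaps and sequences were taken from RefSeq TAIR10.1, and the table gives no coordinates. Merged exons are the union over all transcripts of a gene.

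TMM scaling in edgeR 4.0.16 (R 4.3.3) gave factors of 1.079, 0.9631 and 0.9624 for replicates 1, 2 and 3. Genes were compared as CPM per kb with a pseudocount of 0.1 in log ratios, and libraries were compared as log2(CPM + 0.5). Variation was tested over the 19016 genes passing filterByExpr with an intercept-only design, using a goodness-of-fit test in edgeR against the dispersion trend and a Poisson chi-square test, each with Benjamini-Hochberg adjustment at 0.05. DESeq2 1.42.0 gave an alternative. SciPy 1.17.1, NumPy 2.4.6 and pandas 2.3.3 did the rest. Both tests were checked on simulated data. Members, lists and pairs were chosen with earlier results of these data known. The text names all members, the highest and lowest genes per kb of each pathway and cold list, list genes called by the edgeR test, further genes of those lists by role, genes whose exons overlap a member, and the 3 genes nearest to FLC. All root markers are named, those not called by the edgeR test after their values were seen.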

Additional observations from a re-analysis of the deposited data

How the results depend on the processing

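No paired analysis was possible because the samples form 1 group. Under DESeq2 size factors, total counts, no filter on low counts, and leaving out each replicate, 0 members varied beyond genes of like abundance and, where it was computed, 9 were detected. The members varying beyond counting error numbered 4 with each scaling and without the filter, although total counts replaced FVE by FY, and between 0 and 4 on leaving out a replicate, the lowest without replicate 1. All genes varying beyond the trend numbered 384, 60 to 129 on leaving out a replicate, where fewer samples also lower the power, and 23 as DESeq2 dispersion outliers. With total counts the median difference of the members was 0.204 between replicates 1 and 2, against 0.051 with TMM.

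The log2 ratios of pairs moved mainly with the treatment of length and the pseudocount. Without length correction they were 6.803 for VRN1 over VIN3, -2.059 for FLC over FRI, 0.939 for FCA over FY, -0.481 for FPA over FLK and -3.948 for FLC over FLM. With a pseudocount of 1 they were 3.363 for VRN1 over VIN3, -0.861 for FLC over FRI, -1.32 for FPA over FLK and -1.533 for FLC over FLM. Of 2 lengths chosen after seeing the data, unshared exon bases gave 0.212 for FLC over FRI, a reversal that follows from the 376 unshared bases of FLC, -1.326 for FPA over FLK and -0.448 for FLC over FLM. The longest transcript gave 6.323 for VRN1 over VIN3, -1.053 for FLC over FRI and -1.106 for FPA over FLK. Depth limits the statements on VIN3 and FT. FLC is limited by its low count, 42 to 57 per library, and 68.1% of its exon bases are shared.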

Other observations

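Antisense or overlapping genes are annotated at 3 further members. At FRI the antisense RNA gene AT4G03675 covers 9.19% of the exon bases and had 0 counts in each library. At FPA the long noncoding RNA gene AT2G09470 covers 7.81% of the exon bases and also had 0 counts in each library. The neighbour AT5G57370 overlaps 26 exon bases of VIN3.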
